A study of Mus musculus with 8 samples.

Results

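Mitosis genes were followed in bone-marrow-derived macrophages of NIK KO and WT mice, with and without interleukin 4 (IL-4). NIK, the NF-κB-inducing kinase encoded by Map3k14, starts the noncanonical branch of NF-κB signalling. The set holds 40 genes listed by symbol, from cyclin B and CDK1 to spindle, kinetochore and cytokinesis genes, and all 40 were found in both of the authors' deposited tables, among 14193 genes with IL-4 and 13676 with PBS. The members were listed for their roles, by a choice made with earlier results of these data known.

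The 4 groups were NIK KO with IL-4, WT with IL-4, NIK KO with PBS and WT with PBS, each of 2 mice. All mice were female and 12 weeks old, and the same 4 mouse numbers appear in the sample titles of both treatments. Marrow cells had been grown into macrophages with medium conditioned by L929 cells, a source of the growth factor M-CSF, and were then given PBS or, for 6 hours, 20 ng/mL IL-4. The labels used here do not name the knocked-out allele or the strain. The deposited tables give 1 comparison each, NIK KO over WT, with no value per library, so the depth of the 8 libraries is unknown and levels are printed as means of 2 mice. The standard error (SE) of a fold change is the authors' own estimate from 2 mice per group. The spread between mice for a single gene cannot be seen.

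Cells enter mitosis when CDK1, bound to a B-type cyclin, is freed of its inhibitory phosphates by CDC25 phosphatases. Kinetochores then attach chromosomes to the spindle, a checkpoint holds the cell until all are attached, and the anaphase-promoting complex (APC/C) releases it by marking cyclin B and securin for destruction. Transcripts of these genes accumulate from late S phase to mitosis, through promoters that carry a CHR element bound by the MuvB complex and CCAAT boxes bound by NF-Y. Macrophages grown in M-CSF go on dividing in culture, so bulk RNA of such a culture holds these transcripts. In bulk RNA, fewer dividing cells and less of a transcript per dividing cell cannot be told apart.

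The promoters of the set were read from RefSeq (GRCm38.p6), from 250 bases before to 50 bases after each start. A promoter was found for 34 of the 40 members, and those of Ccna2, Cdc25c, Aurkb, Tpx2, Kif20a and Dlgap5 are named only. The CHR letters TTTGAA, searched on both strands, stood in the promoters of 25 of 34 members (73.5%), against 20.2% of 27025 genes. The letters CCAAT, also on both strands, stood in 25 of 34 (73.5%), against 41.1% of all genes, and both together in 21 of 34 (61.8%), against 7.97%. The CHR variant TTCGAA stood in 4 of 34 (11.8%), against 1.80%. TTTGAA and CCAAT can share an end base, and TTCGAA reads the same on both strands. A match is a description of the sequence, not of binding.

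Matches of TTTGAA lay close to the start. With the first promoter of each gene, 25 of 32 matches, in 23 genes, began within 50 bases of it on either side, and the median first base was at position 5.5, counted from 1 at the start. In 21 genes a CCAAT match lay upstream of the CHR match nearest the end of the window. The distance between their first bases had a median of 35 bases, and 12 of the 21 distances were 20 to 40 bases. In Ccnb2 the distance was 25 bases, in Ube2c 28, in Hmmr 28, in Cdk1 33 and in Top2a 35.

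**Figure D1:**
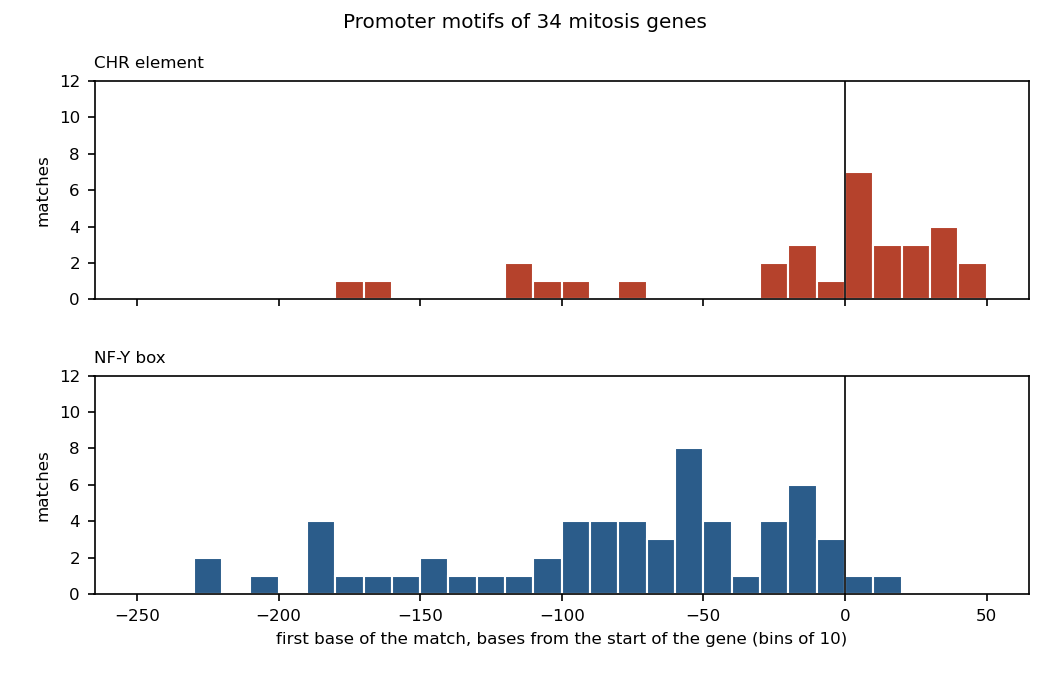
Position of the first base of each CHR match (upper panel) and each NF-Y box match (lower panel) in the promoters of 34 mitosis genes, in bases from the start of the gene, as the number of matches in bins of 10 bases. Of 32 CHR matches 25 begin within 50 bases of the start, while the 60 NF-Y box matches have their median at -67.5.

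Printed, to show how the letters lie, are the promoters of 4 members with both motifs. They are the most abundant among the members picked for full description by the rule given with the processing. Measured to the CHR match nearest the end of the window, the distance was 43 bases in Mki67, 17 in Racgap1, 102 in Cenpa and 153 in Bub1b. By that measure all 4 fall outside the range of 20 to 40 bases that 12 of 21 genes held. Top2a and Ccnb2, which have both motifs and high counts but are not picked by the rule, fall inside it, at 35 and 25 bases. Mki67 has another CHR match, at position -116, which lies closer to its CCAAT match at -141 and is not counted by that measure. The printed stretches run from 250 bases before to 30 bases after the start, on the gene's strand, in GRCm38.p6. Capitals mark TTTGAA and CCAAT or their reverse complements. Mki67 lies on the minus strand at chr7:135716350-135716629, Racgap1 on the minus strand at chr15:99651627-99651906, Cenpa on the plus strand at chr5:30666636-30666915 and Bub1b on the plus strand at chr2:118597961-118598240. The TTTGAA of Bub1b begins at position 41 and lies past the printed stretch.
Mki67: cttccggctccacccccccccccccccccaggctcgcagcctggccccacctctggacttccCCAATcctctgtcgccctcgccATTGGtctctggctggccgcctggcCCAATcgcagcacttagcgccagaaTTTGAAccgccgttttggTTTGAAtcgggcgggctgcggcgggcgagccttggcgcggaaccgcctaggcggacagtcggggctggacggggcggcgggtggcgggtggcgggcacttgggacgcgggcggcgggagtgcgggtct
Racgap1: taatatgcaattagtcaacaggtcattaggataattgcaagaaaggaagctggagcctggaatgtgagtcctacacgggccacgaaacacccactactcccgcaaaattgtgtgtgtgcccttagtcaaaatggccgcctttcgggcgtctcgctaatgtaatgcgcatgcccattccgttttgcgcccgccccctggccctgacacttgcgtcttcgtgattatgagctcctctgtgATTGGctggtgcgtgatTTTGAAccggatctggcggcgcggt
Cenpa: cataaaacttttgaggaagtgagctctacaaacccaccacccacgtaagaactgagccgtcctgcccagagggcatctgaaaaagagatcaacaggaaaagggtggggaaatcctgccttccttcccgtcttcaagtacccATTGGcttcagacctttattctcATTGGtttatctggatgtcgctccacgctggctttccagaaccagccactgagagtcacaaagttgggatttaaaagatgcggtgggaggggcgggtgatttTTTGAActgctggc
Bub1b: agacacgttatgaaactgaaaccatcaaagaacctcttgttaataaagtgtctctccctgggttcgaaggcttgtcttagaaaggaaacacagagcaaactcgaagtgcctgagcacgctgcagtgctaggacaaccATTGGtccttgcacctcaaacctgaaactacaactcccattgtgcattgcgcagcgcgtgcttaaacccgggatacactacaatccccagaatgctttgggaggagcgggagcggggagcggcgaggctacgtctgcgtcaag

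Mki67 has CHR matches at positions -116 and -98, with NF-Y boxes upstream of them at -188, -166 and -141. Racgap1 and Cenpa have their CHR match just after the start, at positions 6 and 17. In Racgap1 the nearest NF-Y box begins 17 bases before it, in Cenpa 102 bases before it.

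As a check of the labels, Map3k14 (ENSMUSG00000020941) stood higher on the side labelled NIK KO, with mean normalized counts of 832 in NIK KO and 418 in WT with IL-4, and 902 in NIK KO and 425 in WT with PBS. In the authors' deposited tables its log2 fold change was 0.99 ± 0.22 with IL-4 (SE, DESeq2 adjusted p = 0.00782) and 1.09 ± 0.28 with PBS (adjusted p = 0.176). This goes against the label, hence the wording libraries labelled NIK KO. If both tables ran WT over NIK KO, every fold change between genotypes, and every difference of such fold changes, would turn its sign. The levels would then swap genotype, and ratios of IL-4 over PBS would swap genotype and keep their sign. Reads from outside a deleted part would still count, and this was not tested. The direction follows how the IL-4 table is named. The PBS table runs the same way, since Kpna2, an importin gene, was at -3.93 ± 0.25 with IL-4 and -4.58 ± 0.28 with PBS in the authors' deposited tables. Gm10184, read for the same check, lay on the other side in both, at 8.44 ± 0.42 and 13.84 ± 1.47. Kpna2 is used here for the direction only. Of 10 macrophage markers, 3 were lower with IL-4 (median 0.09) and 4 with PBS (median 0.027), and 0 were called. They summed to 481211 in libraries labelled NIK KO and 505802 in WT libraries with IL-4, of which Lyz2, lysozyme, made 318214 in libraries labelled NIK KO and 370074 in WT libraries, and to 652077 in libraries labelled NIK KO and 639599 in WT libraries with PBS. Adgre1, the macrophage antigen F4/80, averaged 43143 in libraries labelled NIK KO and 29592 in WT libraries with IL-4, and Mertk, a receptor for dying cells, 289 in libraries labelled NIK KO and 287 in WT libraries; these 3 were picked after their values were seen.

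Across the set, most mitosis genes stood lower on the side labelled NIK KO, whether IL-4 or PBS was given, and no single member passed the test. With IL-4, 37 of 40 members had a fold change below 0 (92.5%), against 51.1% of all genes, with a median of -0.17 on the log2 scale. With PBS, 35 of 40 were below 0 (87.5%), against 51.7% of all genes, with a median of -0.24. Among genes with base mean of at least 100 the median was 0.012 with IL-4 and 0.00026 with PBS. Base mean is the normalized count averaged over the libraries of a table, and all 40 members lay at 100 or more, from 102 to 2955 with IL-4 and from 114 to 2647 with PBS. Summed over the set, the level was 29157 normalized counts in libraries labelled NIK KO and 33182 in WT libraries with IL-4, a ratio of 0.879. With PBS it was 29112 in libraries labelled NIK KO and 33891 in WT libraries, a ratio of 0.859.

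A gene was called at an adjusted p under 0.05 by the authors' DESeq2 Wald test. With IL-4, 0 of 40 members were called, against 0.125% of all genes. With PBS, 0 of 40 were called, against 0.0366% of all genes. Every member had an adjusted p of 1.00 after rounding in both of the authors' deposited tables. At an unadjusted p under 0.05, 2 members were lower with IL-4, Ube2c and Cdc25c, against 1.32% of all genes in that direction, and 1 was lower with PBS, Cdc25c, against 0.702%. The 40 members are read from the same libraries and tend to move as one in dividing cells, so their count is not a count of independent observations.

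The members differed less from each other than each was uncertain. The middle 50% of their fold changes ran from -0.33 to -0.11 with IL-4 and from -0.32 to -0.08 with PBS, while the median SE was 0.25 and 0.30 in the authors' deposited tables. The 95% interval of a fold change spanned 0 for 38 members with IL-4 and 39 with PBS. Its lower end lay above -1, a fall by 2-fold, for 39 members with IL-4 and for 32 with PBS. For those members a fall of that size is outside the interval, and a small rise is inside it for nearly all.

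**Figure D2:**
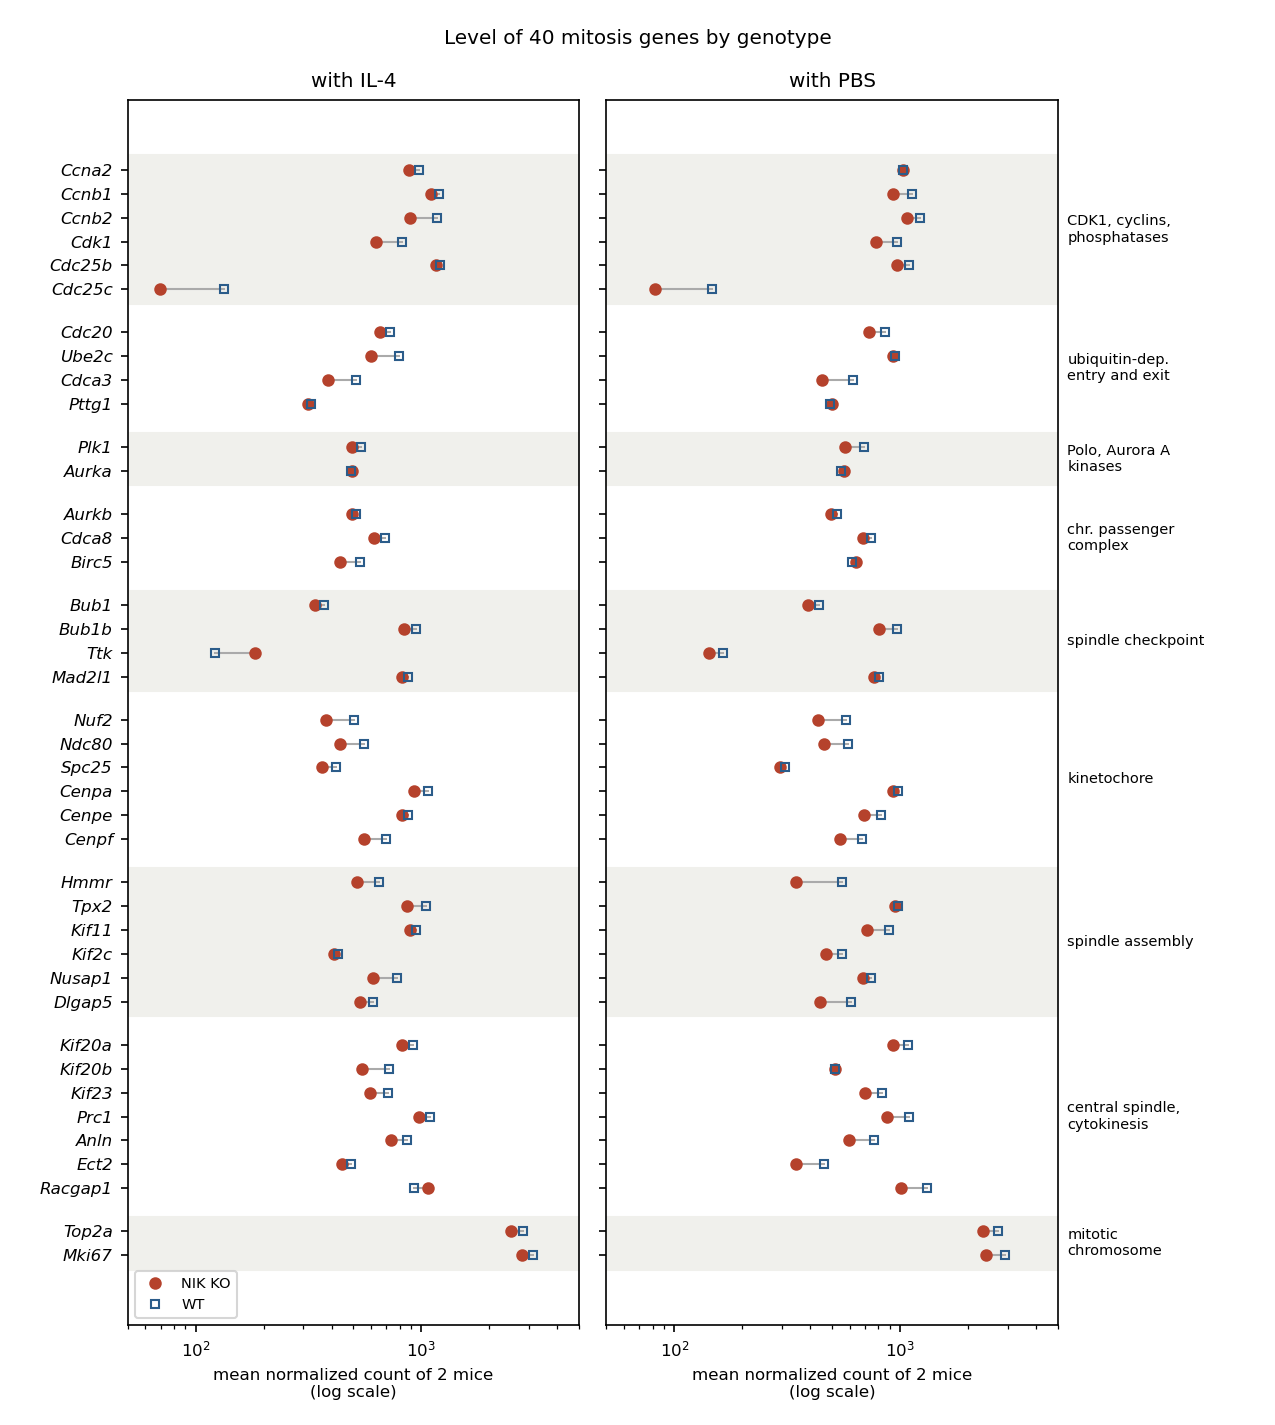
Mean normalized count of 2 mice for each of 40 mitosis genes (log scale), in libraries labelled NIK KO (filled circles) and WT (open squares), with IL-4 (left) and PBS (right), grouped by role. Circles lie left of squares for 37 members with IL-4 and 35 with PBS, Mki67 and Top2a are highest and Cdc25c and Ttk lowest.

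CDK1, its cyclins and its phosphatases were lower for 6 of 6 members with IL-4 (median -0.26) and 5 of 6 with PBS (median -0.24). Cdc25c, a CDC25 phosphatase that activates CDK1, had the lowest fold change of all 40 members under both treatments. It averaged 69.3 normalized counts in libraries labelled NIK KO and 134 in WT libraries with IL-4, and 81.8 in libraries labelled NIK KO and 146 in WT libraries with PBS. The authors' deposited tables give log2 fold changes of -0.95 ± 0.47 with IL-4 and -0.84 ± 0.42 with PBS, by far the largest of the group and also its least certain. Cdc25b, a related phosphatase, averaged 1157 in libraries labelled NIK KO and 1202 in WT libraries with IL-4, and 962 in libraries labelled NIK KO and 1094 in WT libraries with PBS. Its log2 fold changes in the authors' deposited tables, -0.05 ± 0.25 and -0.18 ± 0.28, were smaller than their SE. The B-type cyclin Ccnb2 averaged 891 in libraries labelled NIK KO and 1172 in WT libraries with IL-4, and 1069 in libraries labelled NIK KO and 1216 in WT libraries with PBS. Its log2 fold changes in the authors' deposited tables were -0.40 ± 0.20 with IL-4 and -0.19 ± 0.25 with PBS. Cdk1 itself averaged 629 in libraries labelled NIK KO and 817 in WT libraries with IL-4, and 779 in libraries labelled NIK KO and 965 in WT libraries with PBS. It stood at -0.38 ± 0.23 with IL-4 and -0.31 ± 0.27 with PBS in the authors' deposited tables. Ccna2, the cyclin of S phase and G2, was at -0.14 ± 0.24 with IL-4 and 0.0036 ± 0.27 with PBS in the authors' deposited tables, and Ccnb1 at -0.11 ± 0.22 and -0.29 ± 0.30.

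Genes of ubiquitin-dependent mitotic entry and exit were lower for 4 of 4 members with IL-4 (median -0.28) and 3 of 4 with PBS (median -0.14). Ube2c, the ubiquitin-conjugating enzyme of the APC/C, averaged 596 in libraries labelled NIK KO and 798 in WT libraries with IL-4, and 927 in libraries labelled NIK KO and 949 in WT libraries with PBS. Its log2 fold change in the authors' deposited tables was -0.42 ± 0.21 with IL-4 and -0.03 ± 0.26 with PBS. Cdca3, an adaptor that promotes destruction of the CDK1 inhibitor WEE1, averaged 387 in libraries labelled NIK KO and 514 in WT libraries with IL-4, and 452 in libraries labelled NIK KO and 618 in WT libraries with PBS. It stood at -0.41 ± 0.27 and -0.45 ± 0.28 in the authors' deposited tables, alike under both treatments. Cdc20, an activator of the APC/C, was at -0.15 ± 0.23 and -0.24 ± 0.30, and Pttg1, securin, at -0.04 ± 0.26 and 0.03 ± 0.33 in the authors' deposited tables.

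The mitotic kinase genes Plk1 and Aurka were on different sides of 0 under both treatments. Plk1, Polo-like kinase, averaged 495 in libraries labelled NIK KO and 542 in WT libraries with IL-4, and 568 in libraries labelled NIK KO and 687 in WT libraries with PBS (-0.13 ± 0.27 and -0.27 ± 0.27 in the authors' deposited tables). Aurka, the spindle pole kinase Aurora A, was above 0 under both treatments, at 0.014 ± 0.28 with IL-4 and 0.05 ± 0.32 with PBS in the authors' deposited tables. Within the chromosomal passenger complex, which corrects faulty spindle attachments, 3 of 3 members were below 0 with IL-4 (median -0.16) and 2 of 3 with PBS (median -0.09). Cdca8, borealin, averaged 617 in libraries labelled NIK KO and 690 in WT libraries with IL-4, and 682 in libraries labelled NIK KO and 739 in WT libraries with PBS (-0.16 ± 0.22 and -0.11 ± 0.26 in the authors' deposited tables). Birc5, survivin, averaged 434 in libraries labelled NIK KO and 532 in WT libraries with IL-4, and 635 in libraries labelled NIK KO and 613 in WT libraries with PBS. Its sides differ between treatments, at -0.29 ± 0.25 and 0.05 ± 0.27 in the authors' deposited tables, within the errors. Aurkb, the kinase of the complex, was at -0.06 ± 0.27 and -0.09 ± 0.31 in the authors' deposited tables.

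Of the 4 spindle checkpoint genes, 3 were below 0 with IL-4 (median -0.11) and 4 with PBS (median -0.18). Bub1b, which encodes the checkpoint protein BUBR1, averaged 837 in libraries labelled NIK KO and 943 in WT libraries with IL-4, and 805 in libraries labelled NIK KO and 964 in WT libraries with PBS (-0.17 ± 0.25 and -0.26 ± 0.32 in the authors' deposited tables). Ttk, the checkpoint kinase MPS1, was the member that lay highest with IL-4, with 184 in libraries labelled NIK KO and 121 in WT libraries, and with PBS it had 142 in libraries labelled NIK KO and 164 in WT libraries. In the authors' deposited tables this is 0.60 ± 0.40 with IL-4 and -0.20 ± 0.43 with PBS, for a gene of low count. Bub1 and Mad2l1, a kinase and an APC/C inhibitor of the same checkpoint, were at -0.13 ± 0.30 and -0.10 ± 0.21 with IL-4, and at -0.16 ± 0.34 and -0.06 ± 0.27 with PBS in the authors' deposited tables.

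All 6 kinetochore genes were below 0 under both treatments, with medians of -0.27 with IL-4 and -0.28 with PBS. Nuf2, a subunit of the NDC80 complex that holds microtubule ends, averaged 377 in libraries labelled NIK KO and 502 in WT libraries with IL-4, and 433 in libraries labelled NIK KO and 577 in WT libraries with PBS. Its log2 fold change was -0.41 ± 0.27 with IL-4 and -0.41 ± 0.32 with PBS in the authors' deposited tables. Its partner Ndc80 was at -0.35 ± 0.25 and -0.35 ± 0.28, while Spc25, a further subunit, was at -0.20 ± 0.30 and -0.06 ± 0.39 in the authors' deposited tables. Nuf2 and Ndc80 thus stood lower than the median of the set, and Spc25 did not under PBS, with intervals that overlap. Cenpa, the histone H3 variant of centromeres, averaged 923 in libraries labelled NIK KO and 1073 in WT libraries with IL-4, and 925 in libraries labelled NIK KO and 974 in WT libraries with PBS (-0.22 ± 0.19 and -0.07 ± 0.26 in the authors' deposited tables). The kinetochore motor gene Cenpe was at -0.08 ± 0.26 and -0.24 ± 0.30, and Cenpf, a large kinetochore protein, at -0.32 ± 0.26 and -0.32 ± 0.29 in the authors' deposited tables.

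All 6 spindle assembly genes were below 0 as well, with medians of -0.24 with IL-4 and -0.28 with PBS. Hmmr, a spindle pole protein that also binds hyaluronan, averaged 517 in libraries labelled NIK KO and 650 in WT libraries with IL-4, and 345 in libraries labelled NIK KO and 553 in WT libraries with PBS (-0.33 ± 0.25 and -0.68 ± 0.37 in the authors' deposited tables). Tpx2, which activates Aurora A on the spindle, averaged 859 in libraries labelled NIK KO and 1045 in WT libraries with IL-4, and 951 in libraries labelled NIK KO and 972 in WT libraries with PBS (-0.28 ± 0.21 and -0.03 ± 0.27 in the authors' deposited tables). Nusap1, which bundles spindle microtubules, averaged 610 in libraries labelled NIK KO and 780 in WT libraries with IL-4, and 680 in libraries labelled NIK KO and 742 in WT libraries with PBS (-0.35 ± 0.23 and -0.13 ± 0.29 in the authors' deposited tables). The larger shift thus falls under PBS for Hmmr and under IL-4 for Tpx2 and Nusap1. Kif11, the motor that separates spindle poles, was at -0.09 ± 0.25 and -0.32 ± 0.33, and Kif2c, a kinesin that depolymerises microtubules, at -0.05 ± 0.24 and -0.23 ± 0.31 in the authors' deposited tables. Dlgap5, which stabilises spindle fibres at kinetochores, was at -0.19 ± 0.25 and -0.46 ± 0.34 in the authors' deposited tables.

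Of the 7 genes of the central spindle and cytokinesis, 6 were below 0 under each treatment, with medians of -0.17 with IL-4 and -0.32 with PBS. Racgap1, which forms centralspindlin with Kif23 and governs the GTPase RhoA at the cleavage site, averaged 1074 in libraries labelled NIK KO and 930 in WT libraries with IL-4, and 1005 in libraries labelled NIK KO and 1307 in WT libraries with PBS. It was the exception with IL-4, at 0.21 ± 0.24, and stood at -0.38 ± 0.33 with PBS in the authors' deposited tables. Kif20b, a kinesin of late cytokinesis, averaged 545 in libraries labelled NIK KO and 717 in WT libraries with IL-4, and 514 in libraries labelled NIK KO and 513 in WT libraries with PBS (-0.39 ± 0.27 and 0.0054 ± 0.32 in the authors' deposited tables). Kif23 was at -0.27 ± 0.25 and -0.24 ± 0.32, and Kif20a, the motor that brings Aurora B to the midzone, at -0.16 ± 0.23 and -0.22 ± 0.27 in the authors' deposited tables. Prc1, which bundles the midzone microtubules, was at -0.17 ± 0.21 and -0.32 ± 0.31, Anln, the scaffold anillin, at -0.23 ± 0.24 and -0.36 ± 0.34, and Ect2, which switches RhoA on, at -0.14 ± 0.27 and -0.41 ± 0.39 in the authors' deposited tables.

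Both genes of the mitotic chromosome were the most abundant of the set by count, and Mki67 had its smallest SE. Mki67, the proliferation marker Ki-67 that coats mitotic chromosomes, averaged 2778 in libraries labelled NIK KO and 3132 in WT libraries with IL-4, and 2382 in libraries labelled NIK KO and 2911 in WT libraries with PBS. Its log2 fold changes were -0.17 ± 0.18 with IL-4 and -0.29 ± 0.25 with PBS in the authors' deposited tables, close to 1 SE. Top2a, topoisomerase II alpha, which untangles chromosomes, averaged 2488 in libraries labelled NIK KO and 2818 in WT libraries with IL-4, and 2327 in libraries labelled NIK KO and 2719 in WT libraries with PBS (-0.18 ± 0.21 and -0.22 ± 0.27 in the authors' deposited tables). Per kilobase of the longest transcript the order of levels changes. Ccnb2 was highest in each group, with 582 normalized counts per kb in libraries labelled NIK KO and 766 in WT libraries with IL-4, and 698 in libraries labelled NIK KO and 794 in WT libraries with PBS, and Top2a came next in each. Cdc25c was lowest in libraries labelled NIK KO under both treatments and in WT libraries with PBS, at 26.3, 31.1 and 55.5 normalized counts per kb, and Ttk was lowest in WT libraries with IL-4, at 42.3. Ube2c stood at 272 in libraries labelled NIK KO and 364 in WT libraries with IL-4, and at 423 in libraries labelled NIK KO and 433 in WT libraries with PBS.

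**Figure D3:**
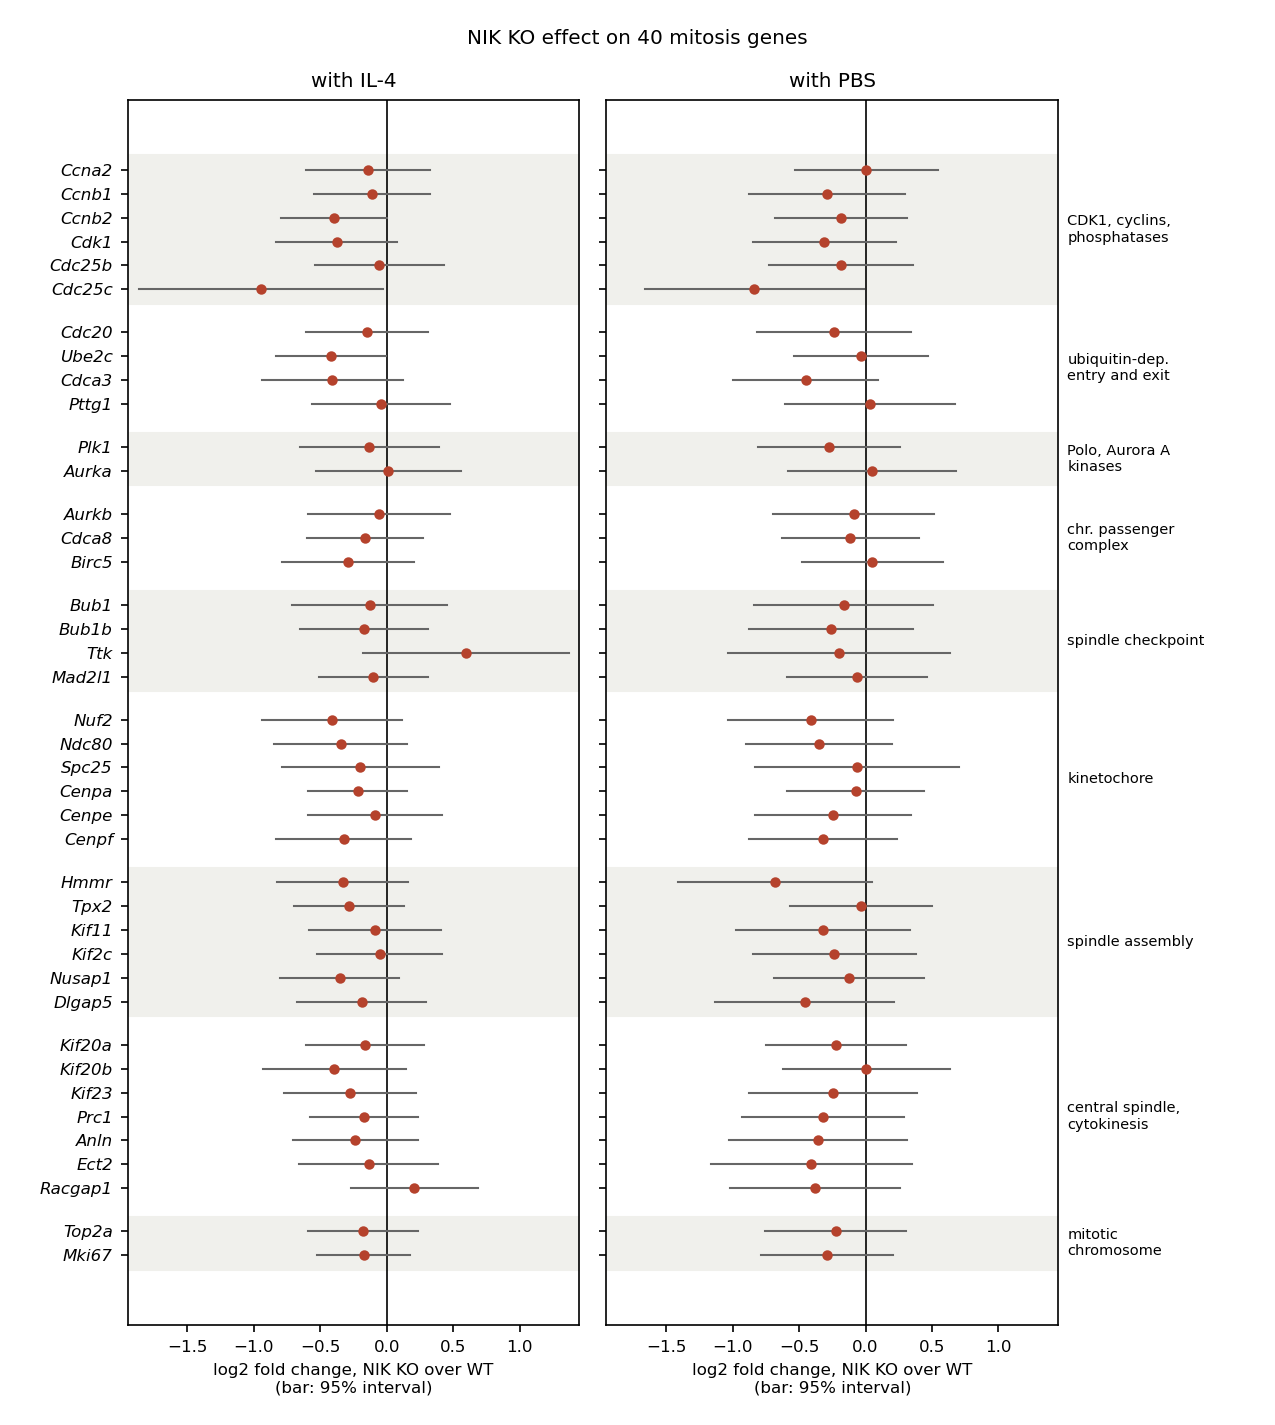
Log2 fold change of NIK KO over WT for 40 mitosis genes with IL-4 (left) and PBS (right), from the authors' deposited tables, with bars for the 95% interval, grouped by role. Points lie left of 0 for 37 members with IL-4 and 35 with PBS, and the bar spans 0 for 38 and 39 members.

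Whether the NIK KO effect changed with IL-4 was tested as the difference of both log2 fold changes over its error (z test, Benjamini-Hochberg adjustment over 13384 genes). Of the 40 members 0 were called, against 0.0149% of all genes. At an unadjusted p under 0.05 there were 0 members, against 116 of the 13384 genes. With an error correlation of 0.5 assumed between the tables, 0 members were called and 1, Racgap1, had an unadjusted p under 0.05. The share of all genes at that p is not given for this correlation, so the 1 member cannot be set beside it. The difference, IL-4 minus PBS, was above 0 for 23 of 40 members, with a median of 0.035, against 49.8% of all genes with a median of -0.0018. The members with the largest differences upward were Ttk (0.80 ± 0.58) and Racgap1 (0.59 ± 0.41), and those downward were Kif20b (-0.40 ± 0.42), Ube2c (-0.39 ± 0.33) and Birc5 (-0.34 ± 0.37), each with an adjusted p of 1.00. The median error of a difference was 0.39, and the absence of calls does not show that the effects were alike. The test treats the errors of both tables as independent although the mice are the same, and for that reason the tables are set side by side and not counted as repeats of each other.

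Levels with IL-4 and with PBS come from tables normalized separately, so they are described without a test. Over 9148 genes of base mean 100 or more in both tables, the IL-4 level exceeded the PBS level by a median of 0.28 in libraries labelled NIK KO and 0.26 in WT libraries on the log2 scale. The members' own median log2 ratio, IL-4 over PBS, was -0.035 in libraries labelled NIK KO and -0.043 in WT libraries. Relative to all genes, mitosis genes therefore stood lower with IL-4, by a median of -0.31 in libraries labelled NIK KO and -0.31 in WT libraries. A relative ratio below 0 was found for 33 of 40 members in libraries labelled NIK KO and 38 of 40 in WT libraries, where 50% of all genes lie below 0 by construction. Without that centring, 21 of 40 members in libraries labelled NIK KO and 22 of 40 in WT libraries had a ratio below 0. The middle 50% of all genes ran from -0.24 to 0.23 in libraries labelled NIK KO and from -0.21 to 0.19 in WT libraries.

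Pttg1, securin, had 315 normalized counts with IL-4 and 500.4 with PBS in libraries labelled NIK KO, and 323 with IL-4 and 489 with PBS in WT libraries. Its relative log2 ratio was -0.94 in libraries labelled NIK KO and -0.86 in WT libraries, the lowest of the set in both genotypes. Ube2c stood at -0.91 in libraries labelled NIK KO and -0.51 in WT libraries, and Birc5 at -0.82 in libraries labelled NIK KO and -0.47 in WT libraries. Cdk1 stood at -0.58 in libraries labelled NIK KO and -0.51 in WT libraries, and Plk1 at -0.47 in libraries labelled NIK KO and -0.61 in WT libraries. Mki67 was closer to the run of all genes, at -0.05 in libraries labelled NIK KO and -0.16 in WT libraries, and Top2a at -0.18 in libraries labelled NIK KO and -0.21 in WT libraries. Members above 0 were few. Spc25 was at 0.028 in libraries labelled NIK KO and 0.18 in WT libraries, Hmmr at 0.31 in libraries labelled NIK KO and -0.03 in WT libraries, and Kif20b at -0.19 in libraries labelled NIK KO and 0.22 in WT libraries. Racgap1 and Ttk were furthest apart between genotypes, at -0.18 in libraries labelled NIK KO and -0.76 in WT libraries for Racgap1 and 0.09 in libraries labelled NIK KO and -0.69 in WT libraries for Ttk. Apart from the offset between the medians used for centring, the gap between genotypes is the difference tested above, which called 0 members. Those medians were 0.276 in libraries labelled NIK KO and 0.265 in WT libraries.

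**Figure D4:**
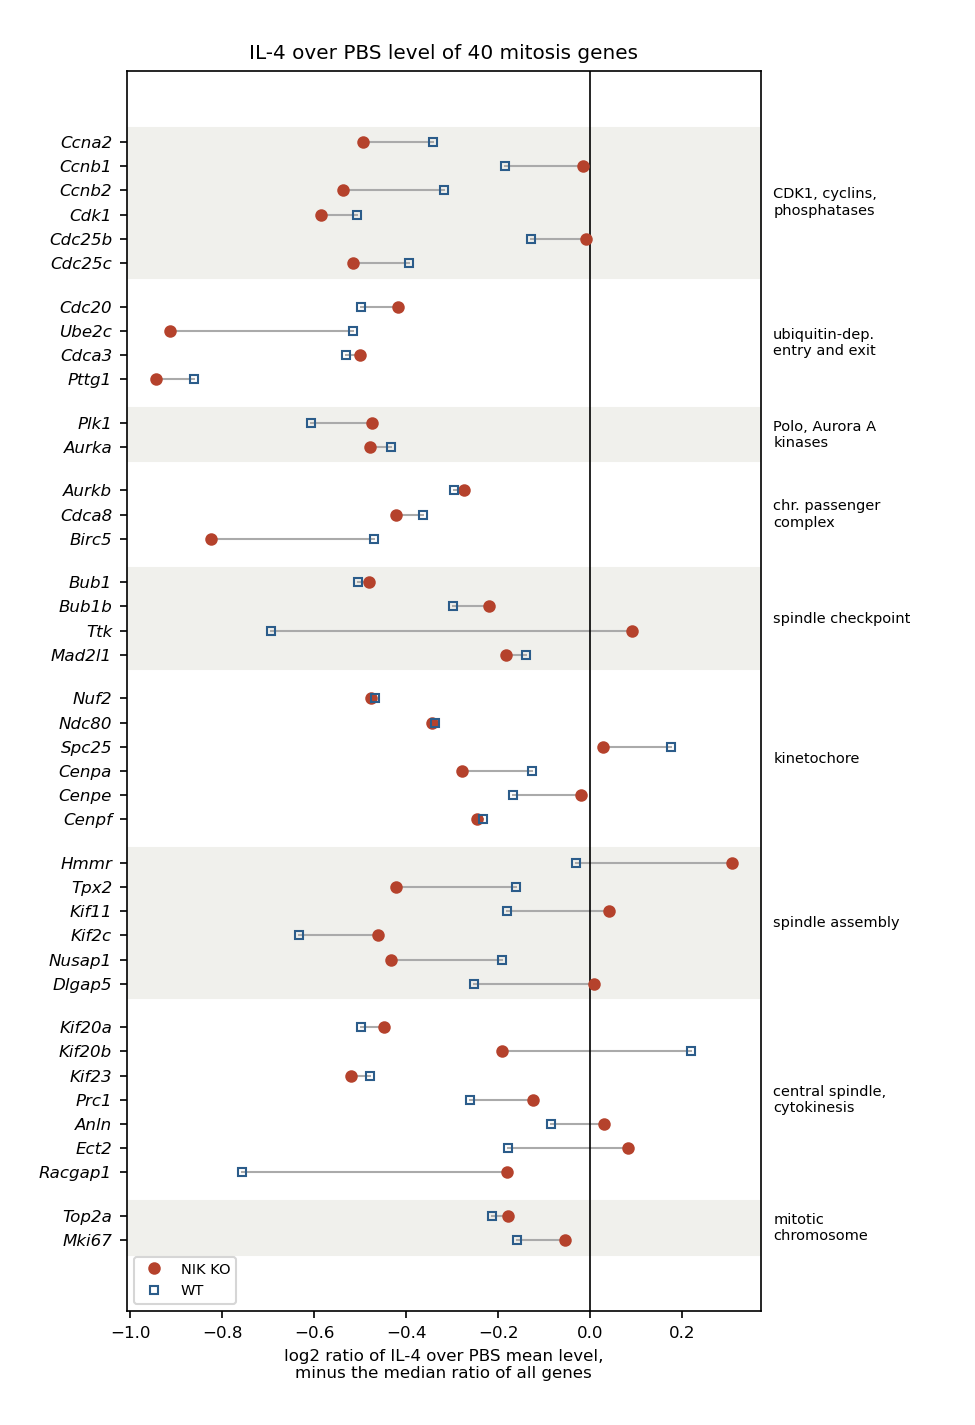
Log2 ratio of the mean level with IL-4 over that with PBS, minus the median ratio of all genes, for 40 mitosis genes in libraries labelled NIK KO (filled circles) and WT (open squares), grouped by role. Circles lie left of 0 for 33 members and squares for 38, with Pttg1 furthest left in both genotypes.

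Other cell cycle genes were described from 7 lists that share no member with the set. The list of other kinetochore and spindle genes, 53 of 54 measured, was lower in the libraries labelled NIK KO for 46 genes with IL-4 (median -0.19) and 44 with PBS (median -0.22). In it Cdkn3, a phosphatase that acts on CDKs, stood furthest from 0 for its error with IL-4, at -0.52 ± 0.32, and Cenpu, a centromere protein gene, with PBS, at -0.73 ± 0.44 in the authors' deposited tables. Among DNA replication genes the counts were nearer to those of all genes, with 23 of 37 lower with IL-4 (median -0.025) and 18 of 37 with PBS (median 0.0070). Cdt1, which loads the replicative helicase, was at 0.52 ± 0.25 with IL-4, and Tk1, thymidine kinase, at -0.44 ± 0.29 with PBS in the authors' deposited tables. The cyclins, CDKs and E2F factors of G1 and G1/S had 7 of 17 genes lower with IL-4 (median 0.10) and 6 of 17 with PBS (median 0.10). Their genes furthest from 0 for their error were the pocket protein gene Rb1 with IL-4, at 0.41 ± 0.21, and the D-type cyclin gene Ccnd3 with PBS, at 0.32 ± 0.26 in the authors' deposited tables.

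Cohesin, condensin and separase genes were lower for 14 of 21 with IL-4 (median -0.05) and 8 of 21 with PBS (median 0.028). Stag1, a cohesin subunit, was at 0.35 ± 0.20 with IL-4 and Ncaph, a condensin subunit, at -0.56 ± 0.37 with PBS in the authors' deposited tables. The APC/C core had 6 of 17 genes lower with IL-4 (median 0.06) and 10 of 17 with PBS (median -0.0038), and its gene furthest from 0 for its error was Anapc1 under both treatments, at 0.33 ± 0.18 and -0.30 ± 0.26 in the authors' deposited tables. Among regulators of mitotic transcription (DREAM, MuvB, B-Myb, FoxM1 and NF-Y), 8 of 14 measured genes were lower with IL-4 (median -0.03) and 8 of 14 with PBS (median -0.06). Lin9, a MuvB subunit, was at -0.33 ± 0.29 with IL-4, and Tfdp2, a dimer partner of E2F factors, at -0.49 ± 0.48 with PBS in the authors' deposited tables. CDK inhibitors and p53 targets had 10 of 13 genes lower with IL-4 (median -0.06) and 7 of 13 with PBS (median -0.03). Cdkn1c, the CDK inhibitor p57, was at -0.69 ± 0.25 with IL-4 and -0.43 ± 0.28 with PBS in the authors' deposited tables (DESeq2 adjusted p = 0.791 and 1.00). DESeq2 called 0 genes of the 7 lists in either table, and 2 of them, Cdt1 and Cdkn1c, had an unadjusted p under 0.05 with IL-4, and the difference between any list and the set was not tested.

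**Figure D5:**
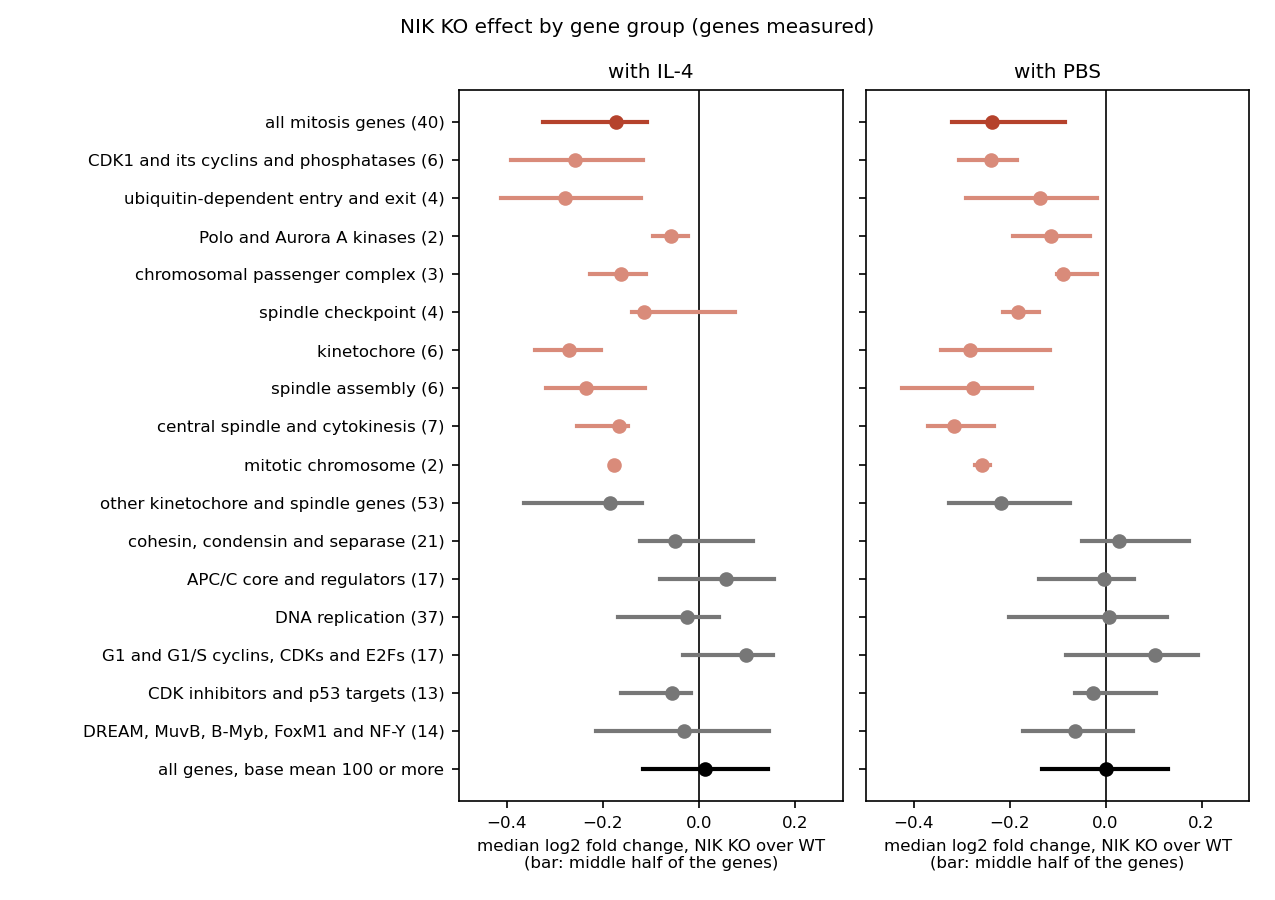
Median log2 fold change of NIK KO over WT for the 40 mitosis genes, their 9 role groups, 7 other cell cycle lists and all genes with base mean of at least 100, with IL-4 (left) and PBS (right). Bars span the middle 50% of the genes. The set and the other kinetochore and spindle genes have medians from -0.24 to -0.17, and DNA replication genes have -0.025 and 0.0070.

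With IL-4 the 21 members with both TTTGAA and CCAAT had a median of -0.17 and the 13 matched members without both -0.13, while 18 of the 21 and 13 of the 13 were below 0. With PBS these medians were -0.26 and -0.18, with 20 of the 21 and 10 of the 13 below 0. Outside the set, 432 genes with both motifs, at a base mean of at least 100, had a median of -0.012 with IL-4, against 0.017 for 7085 genes without both. With PBS the medians were -0.021 for 423 genes with both and 0.00044 for 6884 without. No test was run on these medians.

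Markers of other cells were set beside the set, since a culture can hold dividing cells that are not macrophages. With IL-4, fibroblast markers were lower in the libraries labelled NIK KO for 10 of 11 genes (median -1.51), with summed levels of 314 in libraries labelled NIK KO and 734 in WT libraries. One of them was called, the collagen gene Col3a1, at -2.34 ± 0.53 in the authors' deposited table (adjusted p = 0.0107, DESeq2). With PBS, 5 of 10 measured fibroblast markers were lower (median 0.05), with sums of 178 in libraries labelled NIK KO and 211 in WT libraries, Pdgfra not being analysed there. Of the erythroid list, 5 of 8 measured genes were lower with IL-4 (median -0.78) and 2 of 7 with PBS (median 0.21). Its sums, 6320 in libraries labelled NIK KO and 5424 in WT libraries with IL-4 and 1154 in libraries labelled NIK KO and 845 in WT libraries with PBS, are mostly Tfrc, the transferrin receptor gene that macrophages also express. The globin gene Hba-a1 averaged 40.5 in libraries labelled NIK KO and 92.6 in WT libraries with IL-4, and 31.8 in libraries labelled NIK KO and 31.4 in WT libraries with PBS. Epor, Car1 and Ahsp, genes of erythroid cells, were not analysed here. With IL-4, 5 of 11 fibroblast and 4 of 8 erythroid markers had an unadjusted p under 0.05 (DESeq2 Wald test), all of them lower. That stands beside 1.32% of all genes in that direction. With PBS, 0 markers of either list did. Of the other lists with IL-4, 1 of 10 macrophage and 1 of 6 progenitor markers had such a p and were higher. In the granulocyte list 1 of 6 did with IL-4 and was lower.

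Among the other lists, progenitor markers summed to 451 in libraries labelled NIK KO and 456 in WT libraries with IL-4 and to 293 in libraries labelled NIK KO and 302 in WT libraries with PBS, with 3 of 6 lower under each treatment. Granulocyte markers summed to 205 in libraries labelled NIK KO and 270 in WT libraries with IL-4 (3 of 6 lower), and to 224 in libraries labelled NIK KO and 253 in WT libraries with PBS (4 of 7 lower). Mast cell and megakaryocyte markers summed to 1111 in libraries labelled NIK KO and 982 in WT libraries with IL-4 (1 of 4 lower), and to 888 in libraries labelled NIK KO and 749 in WT libraries with PBS (2 of 4 lower). Most of that sum was Pf4, platelet factor 4, with 1052 in libraries labelled NIK KO and 924 in WT libraries with IL-4, and 843 in libraries labelled NIK KO and 698 in WT libraries with PBS, a gene named for its share after the values were seen. B cell markers reached at most 44.5, in WT libraries with IL-4, and T and NK cell markers at most 14.9, in WT libraries with PBS. The medians of the mitosis genes, the fibroblast list and the erythroid list were -0.17, -1.51 and -0.78 with IL-4, and -0.24, 0.05 and 0.21 with PBS. The median SE of the fibroblast and erythroid markers was 0.82 and 0.50 with IL-4, and 1.14 and 0.79 with PBS. The part of other cells in the shift of the mitosis genes was not tested.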

How the data were processed

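Per the submitters' processing notes, Salmon 1.4.0, DESeq2 1.32.0 and genome build GRCm39 were used; the sources used here give no roles, annotation or filters. The authors deposited 2 tables of gene results. Their base mean, per the file headers, is a signal: size-factor-scaled counts, averaged over 4 libraries. Each deposited table further holds a log2 fold change with its SE on the log2 scale, the Wald statistic, a score, and the p-value and adjusted p-value. The statistic equals fold change over SE, with no later shrinkage, and 551 genes with IL-4 have no adjusted p. Fold changes, SE and p are the authors'. Group means were computed here from base mean and fold change, both groups being of equal size. The members, the 7 cell cycle lists, the 8 marker lists and the tests were chosen with earlier results of these data known. Described in full are, per role group, the members with the largest Wald statistic in each table and the highest base mean. Of each cell cycle list, the gene with the largest Wald statistic is given. Ccnb2, Cdk1, Top2a and Pttg1 are also given with levels, outside that rule. A symbol on several gene IDs kept the ID of highest base mean.

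The z test was tested on simulated data with independent errors. It called 19 of 100 genes with a simulated log2 change of 1, 85 of 100 with a change of 2 and 8 of 13184 with a change of 0. Transcript lengths and shared 31-base words came from GENCODE M21 (GRCm38), for 40 of 40 members. Calculations used Python 3.11.15, scipy 1.17.1, numpy 2.4.6, statsmodels 0.14.6 and pandas 2.3.3, figures matplotlib 3.10.9. The alternatives were other thresholds, filters, centring, a length trend, a weighted mean, correlated errors, a pseudocount and a shorter promoter window.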

Additional observations from a re-analysis of the deposited data

How the results depend on the processing

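The 0 calls among the members held in both tables at an adjusted p under 0.1 and with p-values adjusted anew over genes of base mean 10 or more, and in the difference between treatments at an adjusted p under 0.1. With a correlation of 0.5 assumed between the errors of both treatments, 0 members were called for the difference. Of all genes 20 were called, where independent errors gave 2. At an unadjusted p under 0.05 there was 1 member, with the share of all genes not given. The members' median stayed between -0.23 and -0.17 with IL-4 and between -0.24 and -0.21 with PBS under centring on all genes, subtraction of a length trend and a weighted mean. Restriction to base mean 100 or more, and to members with 50% or less of their words shared, removed 0 members and so tested nothing. The members below 0 numbered 36 or 37 with IL-4 and 35 or 36 with PBS. Subtraction of the length trend turned the sign of Pttg1 with IL-4 (0.035) and of Kif20b with PBS (-0.013). The IL-4 over PBS medians rest on the scaling: subtraction of the median ratio of all genes brought them to -0.31 in libraries labelled NIK KO and -0.31 in WT libraries, while a pseudocount of 1 left them at -0.035 in libraries labelled NIK KO and -0.043 in WT libraries. In the 150 bases nearest the start, TTTGAA stood in 70.6% of member promoters and 9.23% of all genes, CCAAT in 67.6% and 26.3%, and both in 55.9% and 2.22%. No paired analysis was possible because the tables hold no value per library, and for the same reason no mouse could be left out.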
